A study of Danio rerio with 18 samples.

Results

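Translation initiation factor genes were described in RNA of whole zebrafish embryos taken 4 h after fertilisation. They were taken by name: every gene whose name begins with eif and a digit and whose raw read counts summed to at least 180 over the 18 libraries. Of 65 such names, 63 reached this sum, out of 32520 genes in the table, and all 63 passed the filter on low counts that left 14514 genes for testing. Just inside the minimum was eif1ad with 292 counts. Just outside were eif2ak2 with 66 and eif3bb with 2. Embryos of 8 cocktail groups received the RNA-cutting CRISPR nuclease RfxCas13d with 25 guide RNAs (gRNAs) per cocktail, 200 in all, and the last group is labelled as the RfxCas13d control. Each group had 2 libraries, which gives 16 cocktail libraries and 2 control libraries. The stated amount is 10 pg per embryo, with no word on whether each gRNA or each cocktail is meant, nor on any further injection in the control. The study was designed to set predictions of mRNA depletion from models built outside the embryo against depletion inside it. The matched mRNAs were not analysed here, so none of the genes below is called a target. Nothing in the labels ties replicates to separate clutches, so p-values measure the spread between these libraries, which may be technical.

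Initiation is the step of protein synthesis at which a ribosome is placed on the start codon of an mRNA. In the scheme known from yeast and mammals, eIF2 brings the initiator tRNA to the small ribosomal subunit, eIF3, eIF1 and eIF1A hold that subunit open, and the cap-binding eIF4E, the scaffold eIF4G and the helicase eIF4A recruit the mRNA. The exchange factor eIF2B recharges eIF2, eIF2 kinases shut that exchange off, and eIF4E-binding proteins keep eIF4E from eIF4G. The early zebrafish embryo first translates mRNA laid down by the mother and then mRNA of its own genome, and it carries many of these factors as paralogue pairs, some of them left by a genome duplication in the ancestor of teleost fish.

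Gene counts per library ran from 2544027 to 4864939, and the members held 0.784% to 0.938% of them in the cocktail libraries, against 0.966% and 0.996% in the controls. Several measures moved with the groups. Reads that mapped nowhere made up 21.6% to 47.3% in the cocktail libraries and 10.1% and 10.8% in the controls. Summed CPM, read counts scaled to library size, of 16 enveloping layer markers ran from 35.1 to 2524 in the cocktail libraries and were 5338 and 5521 in the controls, and 11 of the 14 tested were lower. Sums of 8 yolk syncytial layer markers were 5.94 to 886 CPM, against 979 and 1007 CPM, with 4 of the 6 tested lower. These were gata5, gata6, hnf4a and mttp. Not called were slc40a1, with a log2 fold change of -2.06 ± 0.88 (SE), and mxtx2, which was positive at 0.50 ± 1.00. The mean of mxtx2 was 350 CPM in the cocktails and 237 CPM in the control. Sums of 10 mesendoderm markers were 12.2 to 1040 CPM, against 2115 and 2153 CPM, with 5 of 10 lower. Not called were tbx16 (-2.15 ± 0.78), ndr2 (-0.93 ± 0.35), lft1 (-0.27 ± 0.48), and 2 with positive values, ndr1 (0.62 ± 0.48) and lft2 (0.06 ± 0.53). None was called higher in these lists, and gata5 is in both the yolk syncytial and the mesendoderm list. Markers of the oocyte and germ plasm went the other way, at 1838 to 4193 CPM, against 1261 and 1276 CPM, with 7 of 10 higher. Of these markers zar1 (0.30 ± 0.24), h1m (0.21 ± 0.17) and ddx4, which was negative (-0.30 ± 0.14), were not called. Markers of later tissues and blood summed to at most 15.3 CPM in the cocktail libraries and 15.97 CPM in the controls, with gfap and ins at 0 in every library. In bulk RNA, fewer cells of a type and less RNA per cell cannot be told apart, and the part of these differences in the results below was not tested. Cocktail 1 replicate 1 stood apart: its enveloping layer sum was 35.1 CPM, and the other 15 cocktail libraries had at least 1016 CPM. The largest move of a called member's fold change without it was 0.10 on the log2 scale, in eif4a2.

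What the cocktails shared in these genes was read from the mean of all 8, set against the control. In the mRNA-recruiting machinery 3 of 4 eIF4A genes, 4 of 5 eIF4G genes and 2 of 3 helicase partner genes fell on counts, and of 7 cap-binding genes 2 fell and 1 rose. On the deposited TPM (transcript abundances scaled per length) 2 of 4, 0 of 5 and 0 of 3 were called lower, and of the cap-binding genes 0 lower and 1 higher. Among the 3 eIF4A genes that fell on counts is eif4a3, more a protein of the exon junction complex than an initiation factor. The largest falls were those of eif4a2, eif1ad, eif3s6ip and eif4ea. The largest rises were those of eif2b2, which encodes a subunit of the exchange factor, and eif4ebp2, which encodes an inhibitor of eIF4E. In all, 22 of 63 members (34.9%) were lower at an adjusted p under 0.05 (edgeR quasi-likelihood test, Benjamini-Hochberg over all genes tested), where 13.6% of all genes tested were lower. Of the members, 6 (9.52%) were higher, where 15.1% of all genes were. The members' median log2 fold change was -0.22, and 44 of 63 were negative, while the median of all genes was 0.03. All 16 cocktail libraries lay below both controls for 20 members (31.7%, and 12.3% of all genes) and above both for 6 (9.52%, and 11.9% of all genes). Overlap of the groups was read in CPM here and below, unless TPM is named.

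These counts rest on 2 control libraries. Over all genes, too, the fewest lower and the fewest higher calls came with a control library left out. The shares of all genes in those fits are not given here, so the member counts that follow have no background beside them. With control replicate 1 left out 8 members were lower and 5 higher, and with control replicate 2 left out 7 were lower and 2 higher. The 9 members called with either control alone were eif2b2, eif4ebp2, eif4a1a, eif4a2, eif3s10, eif3s6ip, eif3ba, eif4g2a and eif4g2b. The TPM values, on which the median of all genes stood 0.15 log2 units above the control, gave 7 lower and 7 higher members (limma on log2(TPM + 1)). Higher calls thus made up 50% of member calls on that scale and 21.4% on counts, and over all genes 67% and 52.6%. The share of all genes called on TPM is not given here, so the 7 and 7 members have no background beside them. The members' median lay below that of all genes on both scales, by 0.23 on TPM and by 0.25 on counts.

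**Figure D1:**
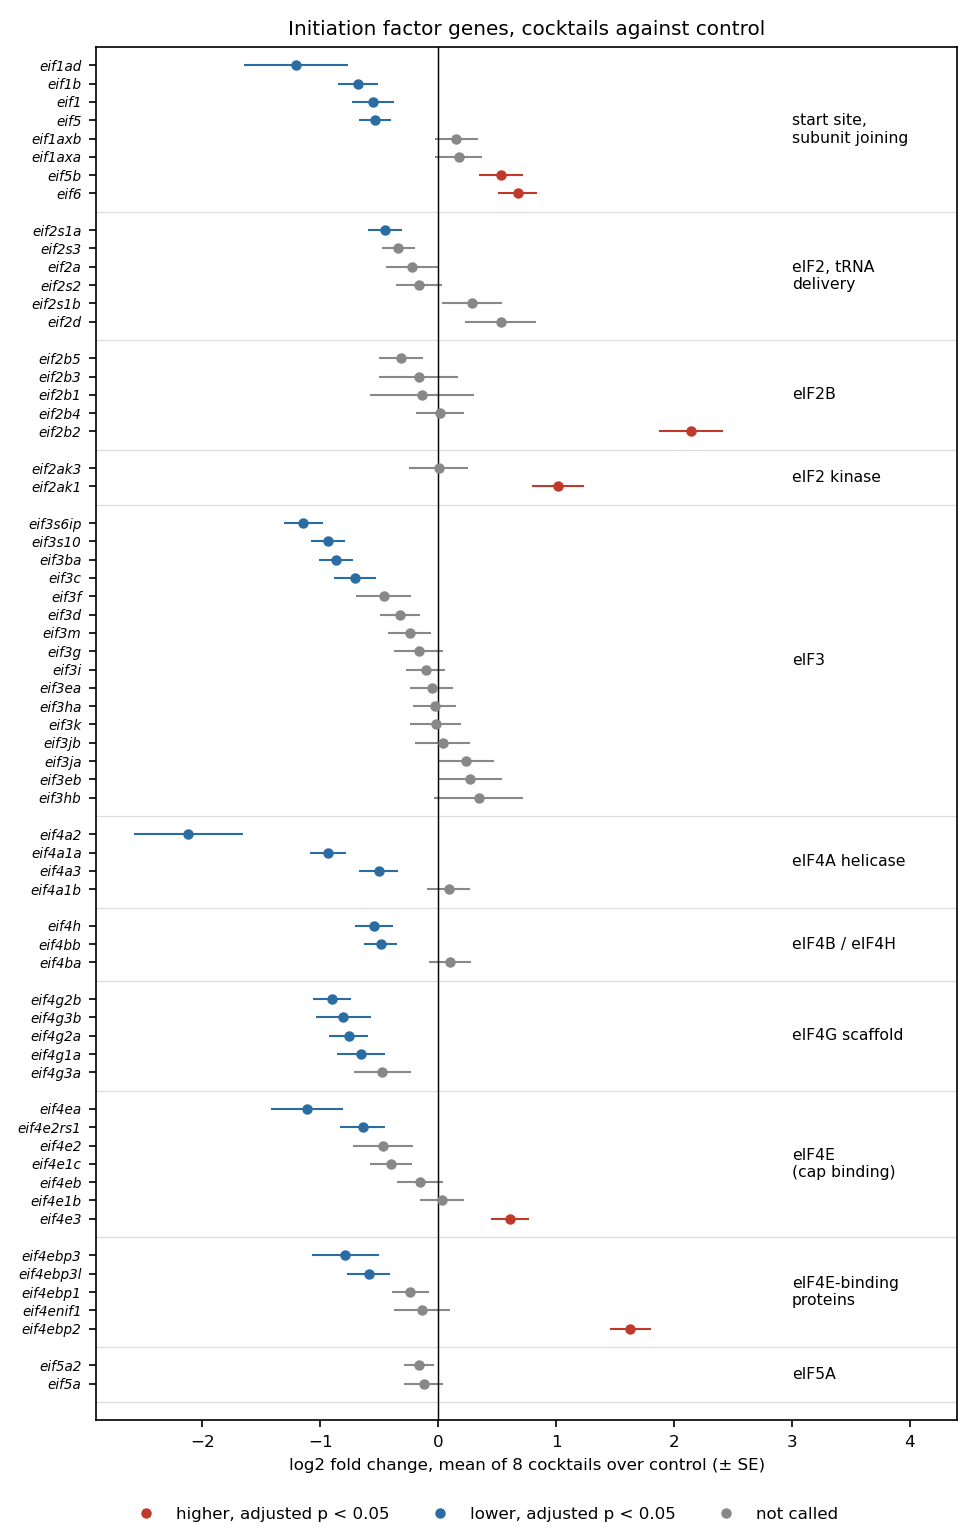
Log2 fold change of each of the 63 initiation factor genes, mean of the 8 cocktails over the control, with bars of 1 standard error, grouped by role. Red points are higher, blue lower and grey not called (edgeR, adjusted p under 0.05); eif4a2 lies furthest to the left at -2.12 and eif2b2 furthest to the right at 2.14.

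Genes of start-site selection and subunit joining split in direction, with 4 of 8 lower, 2 higher and a median of -0.19. The message of eif1ad, named for a domain like that of eIF1A, had 1.49 to 6.40 CPM in the cocktail libraries (median 3.81), against 7.83 and 10.8 CPM in the controls. The groups did not overlap in CPM, but on TPM they did, with up to 13.08 in the cocktail libraries against 12.41 and 20.12 in the controls. The levels are near the limit of these libraries. Its log2 fold change was -1.21 ± 0.44 (SE; edgeR adjusted p = 0.0431), a call lost in 15 of the alternatives, among them each control left out. Of all members, eif1b had the highest TPM in the control, 772 and 834, and 330 to 794 TPM (median 520) in the cocktails. It encodes a second eIF1, the factor that guards the choice of start codon. In CPM it had 162 to 389 (median 248) in the cocktail libraries, against 396 and 429 in the controls, so that all cocktail libraries lay below (-0.68 ± 0.17, edgeR adjusted p = 0.00499). Its partner eif1 (-0.55 ± 0.18) and eif5 (-0.54 ± 0.14), the GTPase activator of eIF2, also fell. All 3 of these calls were lost with either control left out. Those of eif1 and eif5 were also lost when a 1.5-fold minimum was asked for and on TPM (limma adjusted p = 0.113 and 0.0798), where eif1b kept its call (0.0206).

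The rises in this group were those of eif6 and eif5b. The anti-association factor eif6, which keeps the large subunit from joining too early, had 226 to 400 CPM in the cocktail libraries (median 254), against 173 and 155 CPM in the controls (0.67 ± 0.17, edgeR adjusted p = 0.00400). The joining GTPase eif5b had 96.8 to 177 CPM (median 125), against 84.8 and 89.8 CPM (0.53 ± 0.18, edgeR adjusted p = 0.0328). In CPM the groups overlapped in neither gene. On TPM those of eif5b did, with 53.65 to 127.79 in the cocktail libraries against 48.27 and 64.25 in the controls. The call of eif6 was lost without control replicate 2 (edgeR adjusted p = 0.109), and that of eif5b in 6 alternatives, RLE size factors and either control left out among them. The eIF1A genes eif1axa (0.17 ± 0.20) and eif1axb (0.15 ± 0.18) did not pass.

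Of 6 genes for eIF2 and tRNA delivery, 1 fell. This was eif2s1a, which encodes the alpha subunit that the eIF2 kinases phosphorylate, with 268 to 470 CPM in the cocktail libraries (median 376), against 532 and 500 CPM in the controls (-0.45 ± 0.14, edgeR adjusted p = 0.0230). The call was lost with either control left out, with that fold minimum and on TPM (limma adjusted p = 0.0587). The gamma subunit gene eif2s3 also lay below both controls in all 16 libraries in CPM, at -0.34 ± 0.14, but did not pass (edgeR adjusted p = 0.0771). On TPM its groups overlapped, with up to 258.1 in the cocktail libraries against 244.95 and 251.52 in the controls. The beta subunit gene eif2s2 was at -0.17 ± 0.20, eif2a at -0.22 ± 0.22 and eif2d, an alternative tRNA-delivery factor, at 0.53 ± 0.30.

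Of 5 eIF2B genes 1 rose and the other 4 did not pass. The beta subunit gene eif2b2 had 17.9 to 57.8 CPM in the cocktail libraries (median 44.2), against 7.14 and 10.5 CPM in the controls. Every cocktail library lay above both controls, and the log2 fold change of 2.14 ± 0.27 was the largest rise among the members (edgeR adjusted p = 5.31e-06). On the TPM scale it had 26.5 to 84.8 (median 65.3), against 9.26 and 14.2. The other subunit genes, eif2b1 (-0.13 ± 0.44), eif2b3 (-0.17 ± 0.34), eif2b4 (0.01 ± 0.20) and the catalytic eif2b5 (-0.31 ± 0.19), had smaller fitted values. In the RefSeq annotation of another assembly, GRCz12tu, eif2b2 overlaps zc3h14, a zinc finger gene that was lower in the cocktails (104 and 193 CPM on average in the cocktails and the control; -0.89 ± 0.18, edgeR adjusted p = 0.000795). The libraries do not mark the strand, so reads where the 2 genes overlap cannot be told apart. Reads set down as ambiguous entered no gene's count, and whether those of this overlap were is not known here.

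Among the eIF2 kinase genes, eif2ak1, the kinase that responds to haem shortage in mammals, had 49.4 to 102 CPM in the cocktail libraries (median 62.7), against 35.7 and 28.0 CPM in the controls. The groups did not overlap (1.02 ± 0.22, edgeR adjusted p = 0.00128, lost without control replicate 2 at 0.0672). Its neighbour usp42, which overlaps it in the same annotation, was also higher (0.62 ± 0.23, edgeR adjusted p = 0.0445). The endoplasmic reticulum kinase gene eif2ak3 was at 0.00 ± 0.25. In the kinase gene under the count minimum, eif2ak2, the cocktail libraries had 0 to 3.86 CPM and the controls 0.23 and 0, levels of a few reads.

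The 16 eIF3 genes had 4 lower and none higher, with a median of -0.14 on counts that was 0.01 on TPM. The 4 that fell were eif3s10 (EIF3A in the reference table), eif3ba and eif3c, which encode core subunits of this complex, and eif3s6ip (EIF3L). The count of eif3s6ip was 36.8 to 113 CPM in the cocktail libraries (median 77.1), against 141 and 168 CPM in the controls (-1.14 ± 0.17, edgeR adjusted p = 2.93e-05). For eif3s10 the values were 113 to 233 CPM (median 184), against 336 and 344 CPM (-0.93 ± 0.15, edgeR adjusted p = 6.69e-05). For eif3ba they were 118 to 201 CPM (median 159), against 268 and 330 CPM (-0.87 ± 0.14, edgeR adjusted p = 0.000116). In all 3 genes every cocktail library lay below both controls, and the 3 calls held in every alternative run. The fourth, eif3c, was at -0.70 ± 0.18 (edgeR adjusted p = 0.00482) and lost its call on TPM and without control replicate 2. The remaining 12 ran from -0.46 ± 0.23 in eif3f to 0.35 ± 0.38 in eif3hb, and none passed.

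The helicase genes held the largest fall of all members. The message of eif4a2 was scarce, with 0.27 to 7.34 CPM in the cocktail libraries (median 3.78), against 14.97 and 13.9 CPM in the controls, which is 1 to 24 reads and 65 and 46 reads. All cocktail libraries lay below both controls (-2.12 ± 0.46, edgeR adjusted p = 0.00154). The main helicase gene of the embryo by TPM was eif4a1a, at 288 to 927 CPM (median 522), against 1030 and 1021 CPM (-0.93 ± 0.16, edgeR adjusted p = 0.000131). On TPM the groups of eif4a1a overlapped, with up to 665.68 in the cocktail libraries against 653.99 and 663.1 in the controls. Both calls held in every alternative run. In the RefSeq annotation of GRCz12tu, 5 genes for small nucleolar RNAs overlap eif4a2 and 1 overlaps eif4a1a, and their part was not tested. The third to fall was eif4a3, a core protein of the exon junction complex more than an initiation factor, at -0.51 ± 0.17 (edgeR adjusted p = 0.0284), and its call was lost on TPM, with a 1.5-fold minimum and with either control left out. The helicase partners eif4h (-0.55 ± 0.16) and eif4bb (-0.49 ± 0.14) fell with the same limits, while eif4ba was at 0.10 ± 0.18.

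All 5 eIF4G genes were negative, with a median of -0.76 on counts and -0.61 on TPM. The largest fall was that of eif4g2b, one of the pair for the variant scaffold that lacks an eIF4E site in mammals, with 162 to 423 CPM in the cocktail libraries (median 332), against 579 and 627 CPM in the controls (-0.90 ± 0.16, edgeR adjusted p = 0.000291). Its partner eif4g2a (-0.76 ± 0.17), the classical scaffold eif4g1a (-0.65 ± 0.20) and eif4g3b (-0.80 ± 0.23) also fell, and eif4g3a, at -0.47 ± 0.24, did not pass. In CPM the groups did not overlap for eif4g2a, eif4g2b and eif4g1a. On TPM those of eif4g1a did, with up to 43.05 in the cocktail libraries against 31.54 and 37.6 in the controls. On TPM none of the 5 passed, with values from -0.80 to -0.13, and with either control left out 2 did, eif4g2a and eif4g2b.

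Of 7 genes for cap-binding proteins 2 fell and 1 rose. The classical cap-binding gene eif4ea had 5.06 to 12.5 CPM in the cocktail libraries (median 10.3), against 20.5 and 20.8 CPM in the controls (-1.11 ± 0.31, edgeR adjusted p = 0.00872, lost on TPM and with either control left out). The groups did not overlap. In the same way eif4e2rs1, related to the cap-binding repressor eIF4E2, was at -0.64 ± 0.19 (edgeR adjusted p = 0.0142, with the same losses). Its groups did overlap on TPM, with up to 85.66 in the cocktail libraries against 84.57 and 95.44 in the controls. In contrast eif4e3, a divergent cap-binding protein, had 103 to 161 CPM (median 124), against 91.0 and 71.4 CPM, with no overlap (0.61 ± 0.16, edgeR adjusted p = 0.00657, lost without control replicate 2 at 0.212). The oocyte-type eif4e1b was at 0.03 ± 0.18 and eif4e1c, the most abundant of the 7 by TPM in the control, at -0.40 ± 0.18.

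Among the eIF4E-binding proteins and the related transporter eif4enif1, 2 of 5 genes fell and 1 rose. The inhibitor gene eif4ebp2 had 177 to 384 CPM in the cocktail libraries (median 265), against 85.9 and 83.7 CPM in the controls. Its lowest cocktail library was more than 2-fold above the higher control, and the log2 fold change of 1.63 ± 0.18 held in every alternative run (edgeR adjusted p = 9.56e-07). In the other direction eif4ebp3l, second among the members by TPM in the control with 706 and 707, had 398 to 672 TPM (median 521) in the cocktails. Its CPM were 242 to 529 (median 354), against 549 and 534, with no overlap (-0.59 ± 0.18, edgeR adjusted p = 0.0185, lost with either control left out). Also lower was eif4ebp3 (-0.79 ± 0.29, edgeR adjusted p = 0.0422, lost in 11 alternatives), while eif4ebp1 was at -0.24 ± 0.16 and eif4enif1 at -0.14 ± 0.24.

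The 2 eIF5A genes, now known mainly for elongation, were not called on counts, at -0.16 ± 0.13 for eif5a2 and -0.12 ± 0.16 for eif5a. For eif5a2 the 2 deposited tables differed in direction. Its TPM were 335 to 508 in the cocktail libraries (median 419), against 315 and 303 in the controls, with no overlap and a limma adjusted p of 0.00523 (0.47 on the log2(TPM + 1) scale). Its TPM per count, relative to the median gene of the library, was 1.54 on average in the cocktails and 1.11 in the control, and 4.83% of 14418 genes with this ratio moved as much in either direction. Which step gives this difference was not tested.

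**Figure D2:**
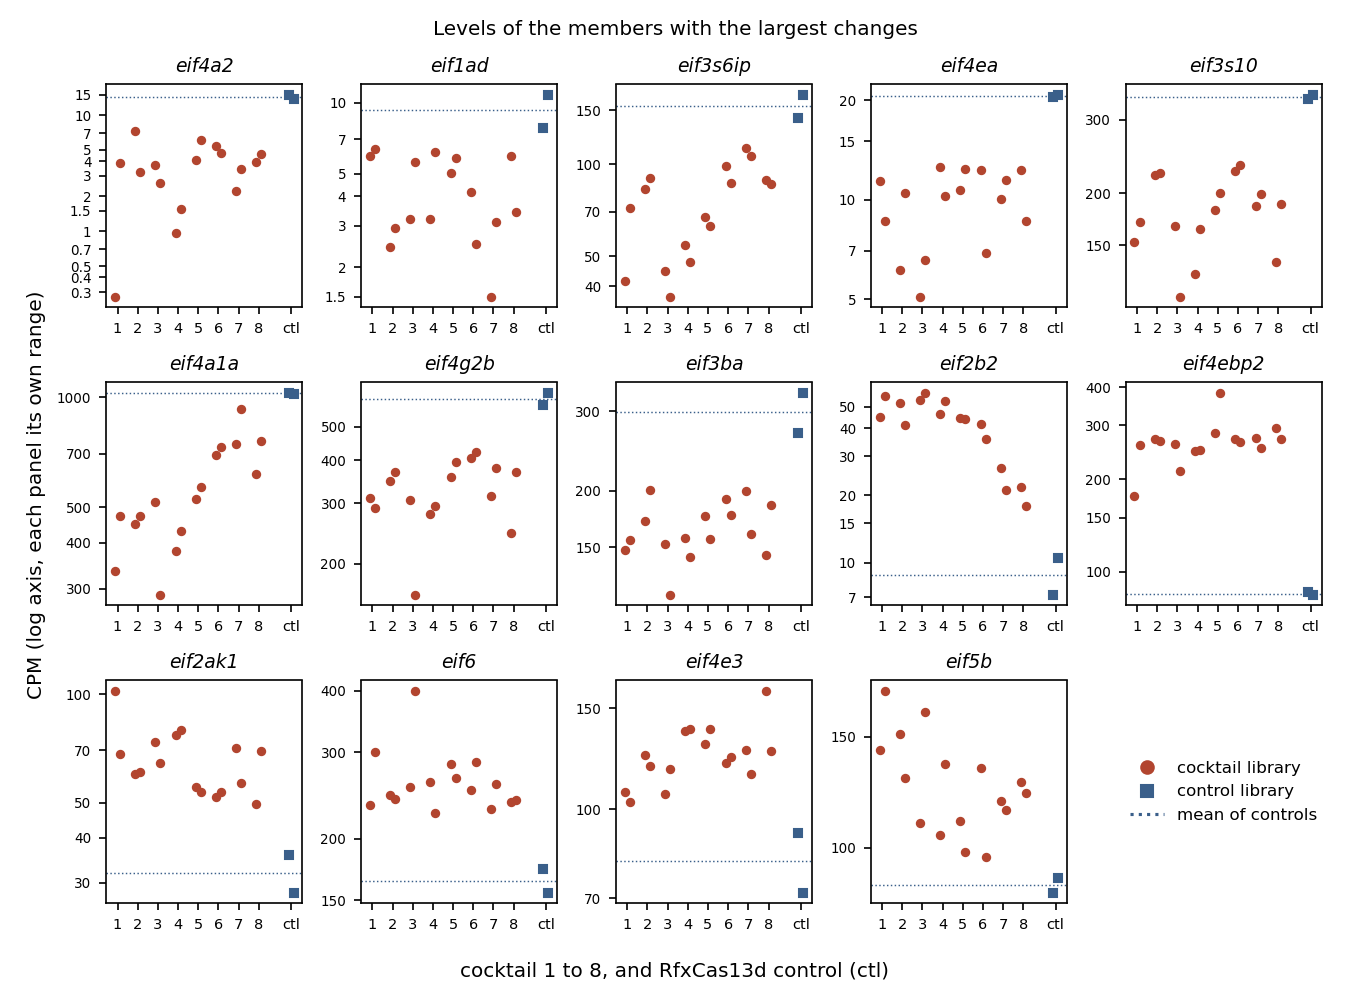
CPM on log axes, each panel with its own range, of the 8 members with the largest falls and the 6 with rises whose 16 cocktail libraries lay beyond both controls. Red circles are the 2 libraries of each cocktail (1 to 8), blue squares the 2 control libraries and the dotted line their mean; in eif2b2 the cocktail libraries run from 57.8 CPM in Cocktail 3 to 17.9 CPM in Cocktail 8.

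Other translation genes were counted from lists of the same table, chosen with earlier results of these data known. Over all 14514 genes tested, 13.6% were lower and 15.1% higher. Of 9 elongation factor genes tested, 3 were lower and 3 higher (median -0.08), with eef2a.1 at -1.90 ± 0.29 and eef1a1l1 at -1.13 ± 0.18. Of 9 genes of termination and ribosome recycling, 4 were lower and none higher (median -0.44), with the rescue factor gene pelo at -0.69 ± 0.17 and the release factor gene gspt1l at -0.69 ± 0.15. Of 11 genes for poly(A)-binding proteins and their partners, 2 were lower and 3 higher (median -0.41). In this list pabpc1a was at -0.91 ± 0.16 and paip1 at 0.74 ± 0.19. Of 22 genes that control cap-dependent initiation, 7 were lower and 5 higher (median -0.04), among them mknk1, whose mammalian kinase phosphorylates eIF4E, at 1.72 ± 0.17 and the mTOR partner gene rptor at 1.51 ± 0.56 (edgeR, adjusted p under 0.05 for each gene named here). Falls and rises thus stood side by side in 3 of the 4 lists.

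The lower calls were also counted by length. When the 63 members were split by the relative length read from counts over TPM, 11 of the 21 longest were lower, 6 of the 21 in the middle and 5 of the 21 shortest. Over all genes tested, cut at the same lengths but with the outer classes open-ended, 16.2%, 11.5% and 10.1% were lower. The longest of these classes held 7462 genes. Higher calls numbered 4 among the longest, 0 in the middle and 2 among the shortest, where 14.9%, 18.6% and 11.8% of all genes were higher. Across members the Spearman correlation of length and log2 fold change was -0.20 (n = 63), and across all genes -0.05 (n = 14510), both as descriptions, since genes of one set of libraries are not independent.

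Each cocktail was then set against the control, with calls at an adjusted p under 0.05 and at least 2-fold. All 8 comparisons share the 2 control libraries. Cocktail 1 had 7 members lower and 3 higher (7.86% and 12.6% of all genes), Cocktail 2 had 1 and 2 (3.00% and 6.17%), Cocktail 3 had 8 and 3 (7.70% and 11.5%), and Cocktail 4 had 7 and 3 (6.69% and 11.4%). Cocktail 5 had 6 and 2 (3.47% and 9.38%), Cocktail 6 had 1 and 2 (1.14% and 4.61%), Cocktail 7 had none lower and 3 higher (1.67% and 4.52%), and Cocktail 8 had 1 and 2 (2.25% and 6.32%). Summed over the cocktails, 31 of 504 member values (6.15%) were lower, where 4.22% of all genes' values were, and 20 (3.97%) were higher, where 8.32% were. Cocktails 1, 3, 4 and 5 held 28 of the 31 lower calls, and these cocktails also had more lower genes over the whole table than cocktails 2, 6, 7 and 8.

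Only eif2b2 and eif4ebp2 were called higher than the control, at these 2 thresholds, in all 8 cocktails. For eif4ebp2 the smallest log2 fold change was 1.36 ± 0.21 in Cocktail 1 and the largest 1.97 ± 0.21 in Cocktail 5; none of the cocktails was called against the 7 others. For eif2ak1 4 cocktails passed (1, 3, 4 and 7), with values between 0.72 ± 0.27 (Cocktail 6) and 1.42 ± 0.27 (Cocktail 1). No member was called lower in more than 4 cocktails. The helicase gene eif4a1a was called lower in cocktails 1, 2, 3 and 4, by -1.15 ± 0.23 to -1.35 ± 0.23, and was at -0.29 ± 0.23 in Cocktail 7. The eIF3 gene eif3s6ip was called lower in cocktails 1, 3, 4 and 5, with -1.92 ± 0.26 in Cocktail 3 as its largest fall, and eif3s10 in cocktails 1, 3, 4 and 8. The genes eif4a2 and eif4g2b were called lower in cocktails 1, 3 and 4.

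**Figure D3:**
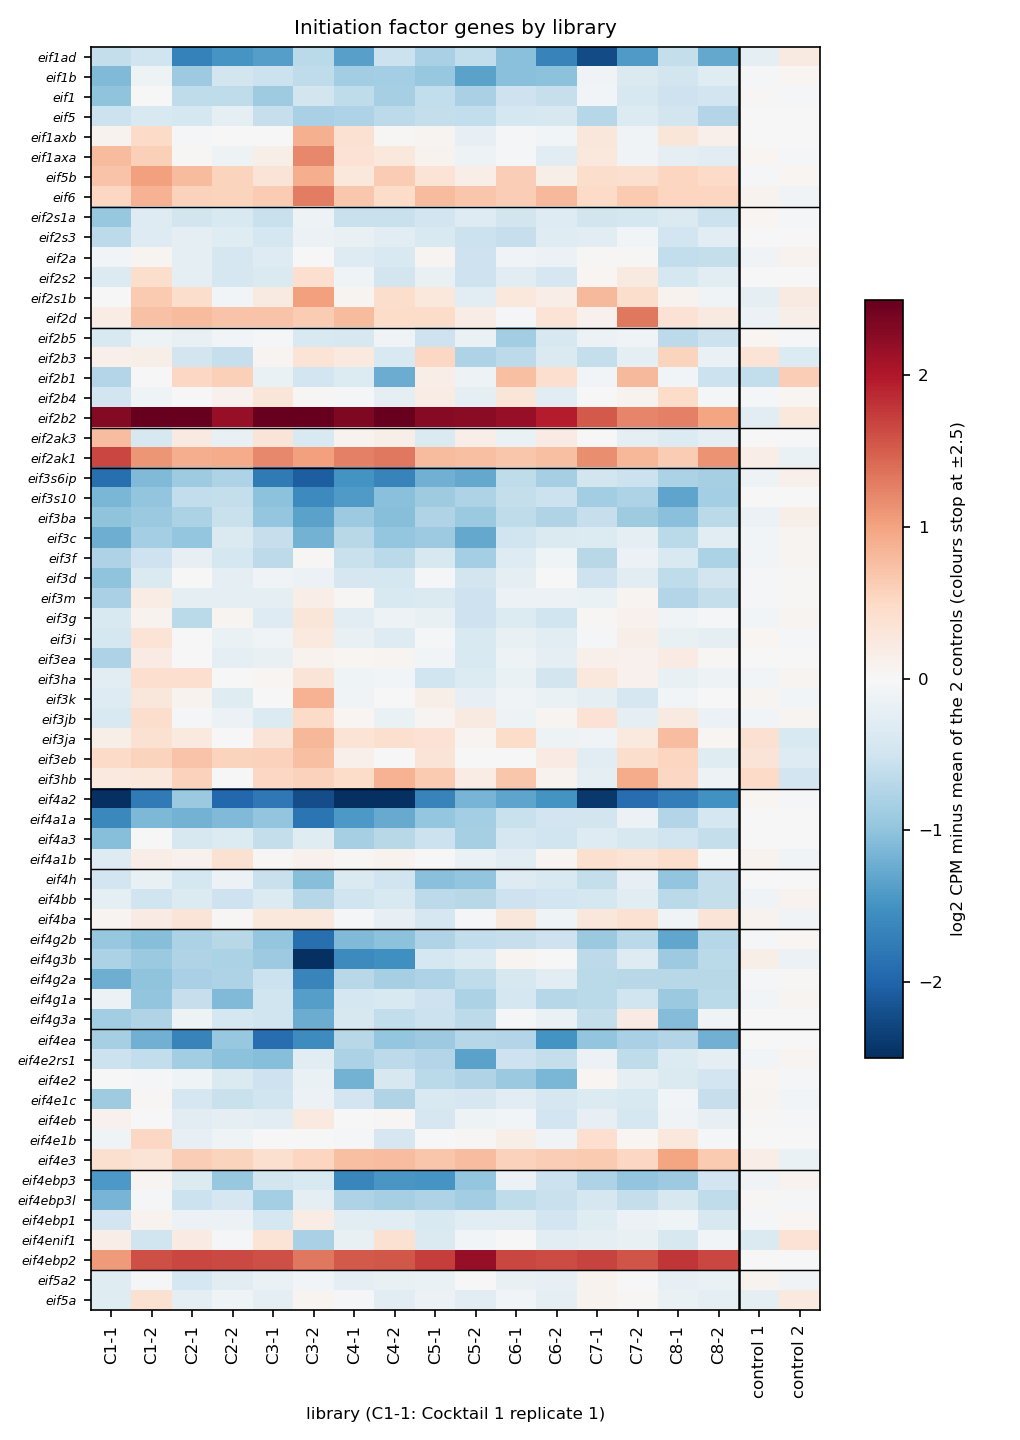
Log2 CPM of each of the 63 members in each library minus the mean of the 2 controls, with red for higher and blue for lower and colours ending at 2.5 in each direction. Columns are the 16 cocktail libraries (C1-1 is Cocktail 1 replicate 1) and then the 2 controls, and rows are grouped by role; eif2b2 and eif4ebp2 are red in all 16 cocktail columns and eif4a2 blue in all 16.

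The cocktails were also set against each other, each against the mean of the 7 others. The control was not part of this comparison, but its libraries still entered the filter, the scaling and the estimate of the spread. Of the 504 member values, 1 was called lower and none higher, where 0.130% and 0.172% of all genes' values were; at an unadjusted p under 0.05 and with no fold minimum, edgeR gave 45 (8.93%), where 10.1% of all genes' values passed. The call was eif2b2 in Cocktail 8 (0.0896% of all genes were lower in that comparison). It had 21.8 and 17.9 CPM in Cocktail 8, against 21.1 to 57.8 CPM in the other 14 cocktail libraries, so that the groups overlapped in 1 library of Cocktail 7. The log2 difference was -1.12 ± 0.24 (edgeR adjusted p = 0.0445). Next lowest was Cocktail 7 with 26.5 and 21.1 CPM, at -0.81 ± 0.24 (edgeR adjusted p = 0.122), which did not pass. The call in Cocktail 8 was lost with the replicate number as a block (edgeR adjusted p = 0.0647), in the fit of only the libraries compared (0.0530) and in most fits with a library left out, where it ran from 0.00734 to 0.407. DESeq2 gave 0.00279. Over the 16 cocktail libraries the sums of oocyte and germ plasm markers were lowest in these same groups, with 1961 and 1838 CPM in Cocktail 7 and 2137 and 2142 CPM in Cocktail 8. Its part in the difference was not tested.

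In Cocktail 7, eif4a1a was highest, with 747 and 927 CPM, against 288 to 759 CPM in the other 14 cocktail libraries. Its difference from the 7 others was 0.73 ± 0.16 (edgeR adjusted p = 0.0310), under the 2-fold minimum. The eIF3 gene eif3s6ip, at 0.73 ± 0.18 in Cocktail 7 and -0.89 ± 0.20 in Cocktail 3, did not pass (edgeR adjusted p = 0.0561 and 0.0569). Replicates were furthest apart in Cocktail 1 and Cocktail 3, where the median member differed by 0.40 and 0.38 log2 CPM between its 2 libraries, against 0.12 to 0.22 in the other groups. Cocktail 1 replicate 1 was the lowest cocktail library for 16 members (25.4%; 14.7% of all genes), and Cocktail 1 replicate 2 the highest for 13 (20.6%; 5.61% of all genes). Cocktail 3 replicate 2 was the lowest for 13 members (20.6%) and the highest for 14 (22.2%), each against 13.5% of all genes. Without Cocktail 3 replicate 1, Cocktail 3 has 1 library, whose spread is taken from the other groups. In that fit its log2 difference from the 7 others was -1.86 in eif4g3b, -1.07 in eif4g2b, -1.05 in eif3s6ip and 1.12 in eif1axa.

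Paralogue pairs were compared by the log2 ratio of the 2 genes within each library, tested between cocktails and control with limma over 1339 pairs of the table, mostly genes whose names differ in a final a or b. Of these, 358 changed (26.7%), and of 15 initiation factor pairs 4 changed (26.7%), the same share. The clearest was eif4ebp1 with eif4ebp2. The log2 ratio was -0.54 to 0.75 in the cocktail libraries (median 0.02), against 1.82 and 1.96 in the controls, with no overlap (change -1.86 ± 0.17, limma adjusted p = 6.32e-08). Per length, eif4ebp1 made up 58.5% to 78.0% of the pair's TPM in the cocktails (median 68.1%), against 88.2% and 89.3% in the controls. The shift came with the rise of eif4ebp2 described above and with -0.24 ± 0.16 in eif4ebp1.

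In the helicase pair, the log2 ratio of eif4a1a to eif4a1b was 1.81 to 3.49 in the cocktail libraries (median 2.66), against 3.67 and 3.84 in the controls, with no overlap (change -1.03 ± 0.20, limma adjusted p = 0.000625). The share of eif4a1a in the pair's TPM was 75.2% to 90.4% (median 85.1%), against 92.0% and 92.8%, and eif4a1b itself was at 0.09 ± 0.18. Both of these pairs changed in every alternative run. In the eIF2 alpha pair, the ratio of eif2s1a to eif2s1b fell by 0.73 ± 0.22 (limma adjusted p = 0.0148, lost without control replicate 1), with 15 of 16 cocktail libraries below both controls and eif2s1b at 0.29 ± 0.25. The ratio of eif4ba to eif4bb rose by 0.58 ± 0.21 (limma adjusted p = 0.0423), with 15 of 16 above both controls, and this call was lost in 12 alternatives.

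The other 11 pairs did not pass. In the classical cap-binding pair, the ratio of eif4ea to eif4eb lay below both controls in all 16 cocktail libraries (-3.24 to -1.80, median -2.29, against -1.47 and -1.39), but the change of -0.93 ± 0.36 had a limma adjusted p of 0.0607. The pairs eif4g2a with eif4g2b (0.14 ± 0.14), eif1 with eif1b (0.13 ± 0.16) and eif4ebp3 with eif4ebp3l (-0.20 ± 0.25) had both genes lower in the mean of the cocktails and no called change of ratio. A missed threshold does not show that these pairs moved alike. The pair eif1axa with eif1axb had a change of 0.02 ± 0.18, and its first gene held 30.7% to 50.4% of the pair's TPM in the cocktails, against 39.5% and 40.2% in the controls. On the log2(TPM + 1) scale 6 of the 15 changed (40%), where 26.4% of all 1339 pairs did, eif4ea with eif4eb (limma adjusted p = 0.0419) and eif5a with eif5a2 (0.0131) in addition. In the counts, reads set down as multimapping or ambiguous entered no gene. How the TPM values treat reads that match both genes of a pair is not given in the sources used here.

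**Figure D4:**
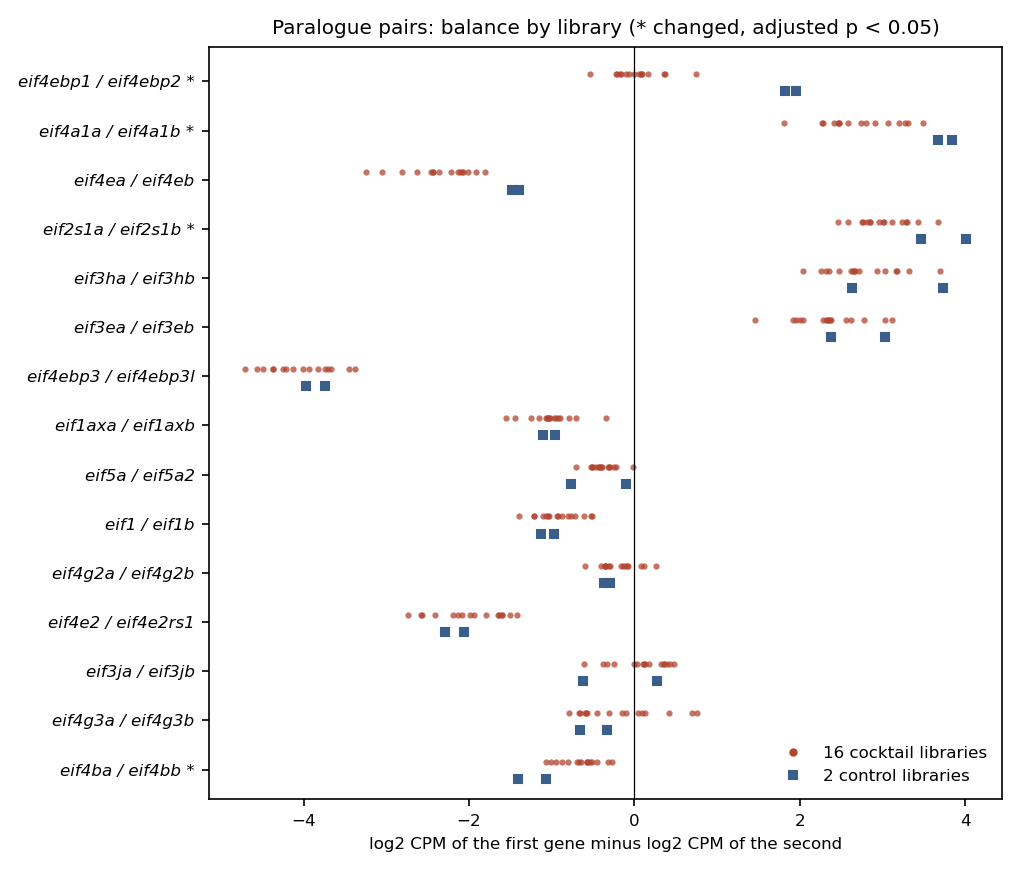
Log2 CPM of the first gene minus that of the second for 15 paralogue pairs, with red circles for the 16 cocktail libraries and blue squares for the 2 controls; an asterisk marks a ratio that changed (limma, adjusted p under 0.05). The cocktail libraries of eif4ebp1 with eif4ebp2 lie between -0.54 and 0.75, all below the controls at 1.82 and 1.96.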

How the data were processed

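RNA was extracted from whole embryos with Direct-zol columns and made into Nextera XT libraries, which do not mark the strand, per the labels' protocols. The authors deposited whole-number read counts per gene for each library, and a second table whose unit was inferred from the values as TPM, since every column has the same total; both were used as deposited. Per the submitters' processing notes, bcl2fastq 2.20 and the build danRer11 were used. Of the aligner, the counter, its strand setting and the annotation, none is given in the sources used here. In the counts of each library 4 rows name no gene (unmapped, multimapping, ambiguous, no feature); they held 29.8% to 55.5% of reads in the cocktail libraries and 22.6% and 23.1% in the controls, and entered neither library sizes nor tests.

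Groups came from the sample titles. The counts were tested with edgeR 4.0.16 in R 4.3.3 (quasi-likelihood F test, robust; TMM; filterByExpr with a minimum count of 10; 1 coefficient per group over all 18 libraries), with Benjamini-Hochberg adjustment over all genes tested. Calls needed an adjusted p under 0.05, and in single cocktails also a 2-fold change. CPM are TMM-scaled, and the standard error is the log2 fold change over the root of F. Pair ratios (log2 CPM, prior count 2) were tested with limma 3.58.1, trend and robust, over all pairs. Fold changes on log2(TPM + 1) understate the change of low genes. The tests were also run on simulated counts in which a changed gene moved alike in all 8 cocktails. That run does not cover differences between cocktails, and its outcome is not given here. The members and lists were chosen with earlier results of these data known; values by library are given for the 8 largest falls and 6 largest rises among called members whose cocktail libraries all lay beyond both controls, the 2 highest members by control TPM, members called against the other cocktails and changed pairs, and per further list the 2 called genes with the largest change. The eif2s1a, eif2ak2, eif3c, eif5a2 and eif4ea with eif4eb values were added after they were seen. As alternatives served DESeq2 1.42.0, a replicate block, RLE size factors, no filter, only the libraries compared, other fold minimums, limma on TPM (at least 1 in 2 libraries), a prior count of 0.5, and each library left out. All 63 members were matched by symbol in the RefSeq table of GRCz12tu, used for names and neighbours only, and 23 of them overlap another gene there. Sequences and coordinates of danRer11 were not used here.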

Additional observations from a re-analysis of the deposited data

Results flagged for a closer look

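The exchange factor gene eif2b2 was the 1 member called between cocktails. In Cocktail 8 its level lay below the mean of the 7 others (log2 difference -1.12 ± 0.24 SE, edgeR adjusted p = 0.0445), although it was above the control in all 8 cocktails. This was 1 of 504 member values (0.198%), where 0.130% of all genes' values were called lower. Both libraries of Cocktail 8, at 21.8 and 17.9 CPM, lay below the 12 libraries of cocktails 1 to 6, which had 35.7 to 57.8 CPM. Cocktail 7, with 26.5 and 21.1 CPM, overlapped Cocktail 8. The call was lost under the replicate block (edgeR adjusted p = 0.0647), with only the libraries compared (0.0530) and in most fits with a library left out. In those fits the log2 difference ran from -1.25 to -0.98.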

How the results depend on the processing

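Of the 28 members called in the mean of the cocktails, none changed direction under any alternative run. All 28 were called by DESeq2, 27 with RLE size factors, 26 with no filter and 13 by limma on log2(TPM + 1). On TPM 7 members were lower (22 on counts) and 1209 genes in all (1970 on counts). These gene totals come from different filters, so they are not shares of the same set of genes. Single cocktails were also called with no fold minimum and with a 1.5-fold minimum, and the member counts were the same for both. Against the control they were 69 lower and 32 higher in place of 31 and 20. Against the 7 others there was 1 higher in place of 0, eif4a1a in Cocktail 7. The shares of all genes at these thresholds are not given here, so these member counts have no background beside them. Leaving out 1 library in turn gave 7 to 24 members lower and 2 to 6 higher, and over all genes 876 to 2668 lower and 1009 to 2489 higher. Member calls of these fits in single cocktails have no share of all genes beside them, so their counts are not given. Of the initiation factor pairs 2 to 4 changed, and of all pairs 159 to 444. The lowest counts of members, genes and pairs came with a control library left out, which leaves 1 control assumed to vary like the other groups. Labelled replicate numbers did not pair the samples: over 36 pairs of groups the correlation of same-numbered deviations ran from -0.12 to 0.13. With the replicate block 21 members were lower and 6 higher and 4 initiation factor pairs changed. The shares of all genes and pairs under the block are not given here, so these counts have no background beside them. The 1 call against the 7 others was lost under the block (0 calls), as it was with only the libraries compared (0 calls). Precision is limited by 2 control libraries and, for eif4a2, eif1ad and eif4ea, by low counts.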
